A study of Mus musculus with 4 samples.

Results

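Cytosolic ribosomal protein genes encode the protein components of the large (60S) and small (40S) ribosomal subunits. They were taken as the protein-coding genes of the count tables whose mouse symbol is Rpl or Rps followed by digits, with an optional ending a, x, l or l1, together with Rplp0, Rplp1, Rplp2 and Rpsa and without the S6 kinases. The rule found 82 genes, 50 of the large and 32 of the small subunit, among 20914 named protein-coding genes and 43629 genes in all. The members lie on 19 chromosomes, 4 of them on X.

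RNA was sequenced from CD117+ hematopoietic stem and progenitor cells (HSPCs) of C57Bl/6 mice homozygous for a floxed allele of Chaf1b, which encodes a subunit of the histone chaperone CAF-1. The cells were kept in StemSpan SFEMII with LDL and the cytokines SCF (50 ng/mL), IL3 (10 ng/mL) and IL6 (20 ng/mL), and were infected with the MIGR1 retrovirus, either empty (control, 2 libraries) or carrying Cre (Chaf1b-deleted, 2 libraries). GFP-positive cells were sorted 48 h later. Both groups carry the floxed alleles and the GFP vector, and the control lacks Cre, so an effect of Cre itself and an effect of the deletion cannot be told apart. Libraries were prepared from ribosomal RNA-depleted total RNA, and the labels do not say whether libraries 1 and 2 of a group came from separate animals or cultures, so p-values measure the spread between these libraries, of which an unknown part is technical. The totals of counts on genes were 22736626 and 25409926 for the controls and 23539015 and 18468637 after deletion.

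Ribosomal proteins are made in near-equal amounts and assembled on ribosomal RNA in the nucleolus. Most of their mRNAs begin with a run of pyrimidines, the terminal oligopyrimidine tract, through which mTORC1 signalling sets their translation, and heterozygous loss of several of them causes Diamond-Blackfan anemia, a failure of red cell production. Their short, abundant mRNAs have also left many processed pseudogenes, intronless copies scattered over the genome.

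Chaf1b had 80.3 and 57.9 CPM (counts scaled to a total of 1e6 on genes) in the controls and 16.1 and 17.9 CPM after deletion. Both deleted libraries lay far below both controls. The log2 fold change, deleted over control, was -2.01 ± 0.25 (SE), with an adjusted p of 0.0330 in the edgeR quasi-likelihood fit after Benjamini-Hochberg correction over 16500 genes. With at least 10 counts required in every library, the adjusted p from the same edgeR test with Benjamini-Hochberg adjustment was 0.0651. With a replicate block it was 0.0592 by that test and adjustment. Chaf1a, the partner of Chaf1b in CAF-1, had 120.3 and 84.9 CPM in the controls and 80.4 and 68.4 CPM in the deleted libraries. Kit, which encodes CD117, had 109 and 124 CPM in the controls and 95.6 and 124 CPM in the deleted libraries.

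The libraries differ in more than the deletion. Xist, the RNA of the inactive X chromosome, had 336 CPM in deleted library 1 and between 1.14 and 1.30 CPM in the other 3, and the Y-linked gene Ddx3y had 0.0425 CPM in deleted library 1 and 110.1 CPM or more in the others. The summed CPM of 25 interferon-stimulated genes was 507 and 520 in the controls, 3266 in deleted library 1 and 630.5 in deleted library 2. The share of uniquely aligned reads matched to no annotated exon was 42.3% and 42.1% in the controls. It was 35.8% in deleted library 1 and 48.3% in deleted library 2. If the counting was stranded, this share includes reads antisense to exons. Deleted library 1 thus stands apart in sex and interferon transcripts, and the deleted libraries stand on opposite sides of the controls in reads matched to no exon. Xist and Ddx3y also show that the deleted libraries came from cells of different sex, so their spread is not technical alone. For many of the genes described, log2 fold changes without single libraries are given as well.

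Copies in the genome limit what can be counted in this family, because reads that align to several places were left out of the gene counts. Such alignments made up 18.1% and 16.9% of all records in the controls and 18.2% and 15.5% in the deleted libraries. Of the coding 31-base stretches of a member, a median of 95.2% also occurred elsewhere in the genome, against a median of 0% over the other protein-coding genes. All such stretches occurred elsewhere for 26 members, 90% or more but not all for 24, and under 90% for 32. Among the other protein-coding genes, 97.1% had under 90% and 1.40% had all of them elsewhere. Over all annotated exons, which reads are counted on, the shares elsewhere were much lower. The median was 38.8% for members with all coding stretches elsewhere. It was 34.6% for those with 90% or more but not all, and 21.98% for those with under 90%. The coding share thus overstates how much of a member's exon sequence has copies. The stretches are genomic and do not span exon junctions.

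The following stretches are the middle 31 bases of the longest coding exon of 4 members that recur below, read 5′ to 3′ on the gene's strand from the NCBIM37 genome (mm9). They show what a read of such a gene meets in the genome. The stretch of Rpl5 (chr5:108332771-108332801, plus strand) has 7 exact copies elsewhere, that of Rps27a (chr11:29445941-29445971, minus strand) has 4, and that of X-linked Rpl36a (chrX:131122036-131122066, plus strand) has 6. The stretch of Rpl4 (chr9:64026124-64026154, plus strand) has no other copy.
Rpl5: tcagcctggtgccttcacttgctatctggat
Rps27a: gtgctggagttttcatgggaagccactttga
Rpl36a: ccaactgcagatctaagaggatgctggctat
Rpl4: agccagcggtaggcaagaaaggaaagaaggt

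Counts per length, with length taken over the joined exons of all annotated transcripts, followed the copies. The median control level over tested members was 153 CPM per kb of exon for members with under 90% of coding stretches elsewhere, 34.7 CPM per kb for those with 90% or more and 6.99 CPM per kb for those with all stretches elsewhere. Across the 80 tested members, Spearman's rho between the coding share elsewhere and control CPM per kb was -0.69, a description over genes of the same 4 libraries. For members with many copies the counts cover only the part of the transcript where reads can be placed, so their level is uncertain.

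**Figure D1:**
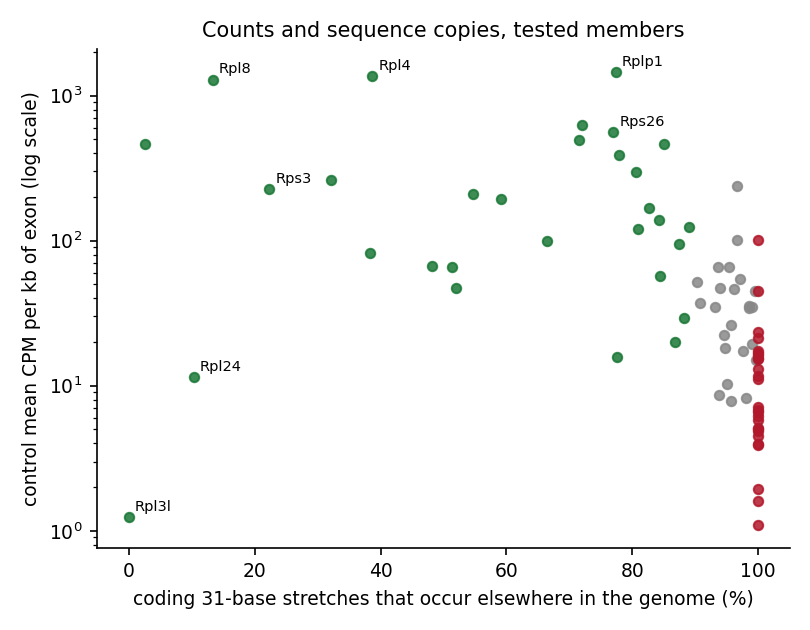
Control mean CPM per kb of exon (log scale) of the 80 tested members against the percentage of their coding 31-base stretches that occur elsewhere in the genome, colored green (under 90%), grey (90% or more) and red (all). The red members have a median of 6.99 CPM per kb and the green ones 153 CPM per kb.

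Scaled to the total on genes, the family held a smaller share of the counts in the deleted libraries. The 82 genes took 1.48% of counts in control library 1 (95% Wilson interval 1.47 to 1.48%), 1.31% in control library 2 (1.30 to 1.31%), 1.25% in deleted library 1 (1.25 to 1.26%) and 1.08% in deleted library 2 (1.07 to 1.08%). The intervals cover counting error only, since the reads carry no molecular identifiers. The groups did not overlap, but the controls differed from each other by more than control library 2 differed from deleted library 1. The group means were 1.39% ± 0.120 (SD, n = 2) and 1.17% ± 0.124 (SD, n = 2), a log2 ratio of -0.25, and the exact two-sided permutation test gave p = 0.333, the smallest that 2 against 2 libraries can give. The log2 ratio was -0.15 without deleted library 2, -0.16 without control library 1, -0.34 without control library 2 and -0.37 without deleted library 1. Over the TMM-scaled library size, as in the fit, the share was 1.480% and 1.286% for the controls against 1.357% and 1.018% for the deleted libraries, so that the groups overlapped, with a log2 ratio of -0.22 and an exact p of 0.667. In bulk RNA, fewer cells rich in ribosomal protein transcripts and less of these transcripts per cell cannot be told apart.

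Few members carry most of the sum. The 10 members with the most control counts held 0.840% ± 0.0721 of counts in the controls and 0.692% ± 0.0978 in the deleted libraries (SD, n = 2). The large subunit held 0.853% ± 0.0756 and 0.704% ± 0.0731, and the small subunit 0.540% ± 0.0441 and 0.463% ± 0.0509 (SD, n = 2 each). The 26 members with all coding stretches elsewhere held 0.0624% and 0.0541% in the controls, 0.0460% in deleted library 1 and 0.0552% in deleted library 2, so that here the groups overlapped.

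**Figure D2:**
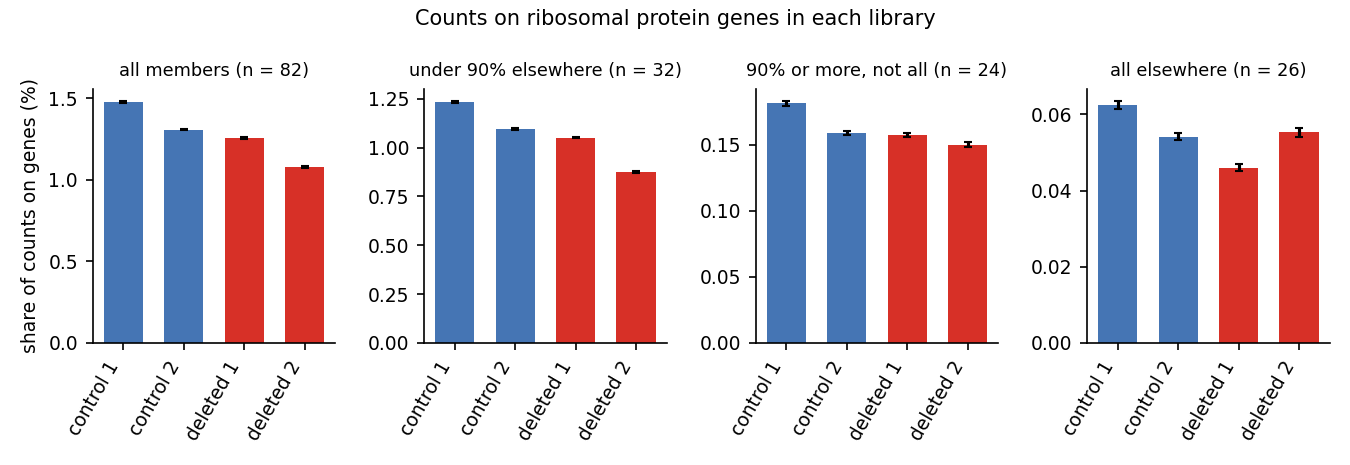
Share of the counts on genes (%) in each library (control in blue, Chaf1b-deleted in red) for all 82 members and for the members split by the share of coding 31-base stretches that occur elsewhere; error bars are 95% Wilson intervals. All members together run from 1.48% in control library 1 to 1.08% in deleted library 2, and the last group is lowest in deleted library 1.

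No member passed the test. Of the 82 genes, 80 passed the filter on low counts (all but Rpl39l and Rpl10l), and the same 80 had at least 10 counts in every library. None was called at 1.5-fold and an adjusted p under 0.05, higher or lower, by edgeR's quasi-likelihood test, its exact test, its likelihood ratio test or DESeq2, where the quasi-likelihood test called 0.37% of the 16500 genes higher and 0.00606% lower. The other 3 tests, in the same order, called 3.25%, 3.53% and 2.85% of the genes higher and 0.224%, 0.242% and 0.194% lower. The lowest adjusted p of a member, from the edgeR quasi-likelihood fit after Benjamini-Hochberg correction, was 0.333. At an unadjusted p under 0.05, 6 members were lower (Rpl36a, Rps27a, Rpl10a, Rpl9, Rps26 and Rpl14), against 3.1% of all tested genes, and 0 were higher, against 9.15%. With library-size, upper-quartile or protein-coding scaling 3 of the 80 were lower at that level (Rps26, Rpl14 and Rpl23), against 3.70%, 2.99% and 3.18% of all genes, which is near the background. Without single libraries the number ran from 1 (control library 1, against 1.68% of all genes) to 13 (deleted library 1, against 4.26%). Without deleted library 2, 1 member was called lower, Rpl5, with a log2 fold change of -1.55 and an adjusted p of 0.0462 by the same edgeR test and Benjamini-Hochberg adjustment, where 42 of all 17123 tested genes (0.245%) were called lower and 324 (1.89%) higher.

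Most members nevertheless had a negative log2 fold change. It was below 0 for 63 of the 80 tested members (78.8%) and for 52.5% of all tested genes. The median was -0.16 over the members and -0.03 over all tested genes, and each scaling tried kept the median of the members negative. Without a filter on low counts, both medians were -0.13. The median of the members was -0.06 without deleted library 2, where that of all genes was -0.04 and 43 of the 80 members (53.8%) were below 0, against 52.7% of all genes. It was -0.32 without deleted library 1, -0.30 without control library 2 and -0.11 without control library 1, with 68, 67 and 51 members below 0. The difference between the median of the members and that of all genes was -0.13 with all libraries, -0.0224 without deleted library 2, -0.30 without deleted library 1, -0.28 without control library 2 and -0.12 without control library 1. Both deleted libraries lay below both controls in CPM for 33 of the 80 (22.9% of all tested genes) and above them for 5 (21.4% of all tested genes). These counts depend on the scaling. With TMM scaling, for example, Rpl22 and Rps19 overlapped, and Rpl11, which overlapped in CPM, lay below both controls.

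**Figure D3:**
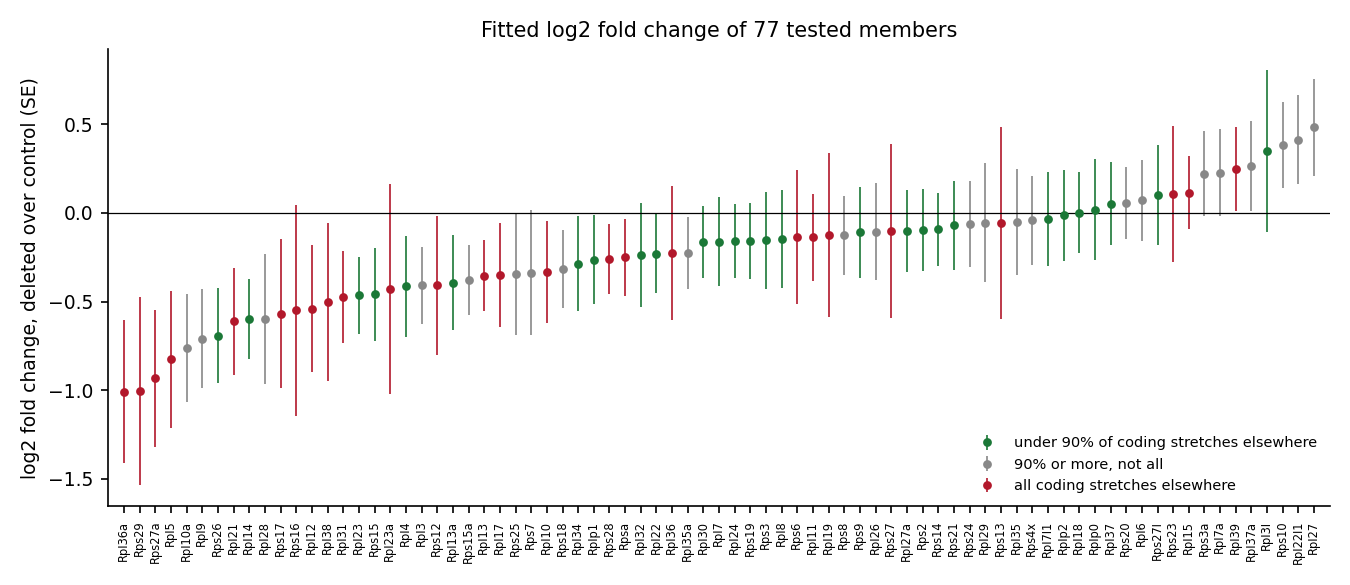
Fitted log2 fold change (deleted over control) of 77 of the 80 tested members in rising order, with the standard error as bars; colors as in the plot of copies and counts. Values run from -1.01 (Rpl36a) to 0.48 (Rpl27), and 61 of those shown lie below 0.

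Large-subunit members on the body of the particle include the most counted ones. Rpl4, which lines the peptide exit tunnel (ENSMUSG00000032399, chr9:64021194-64026369), had 2018 and 1845 CPM in the controls and 1525 and 1304 CPM in the deleted libraries. Rpl14 (ENSMUSG00000025794) had 292 and 262 CPM in the controls and 189 and 169 CPM in the deleted libraries. Both deleted libraries were below both controls for each gene. The log2 fold changes were -0.41 ± 0.29 for Rpl4 and -0.60 ± 0.22 (SE) for Rpl14, with adjusted p of 0.622 and 0.333 by the edgeR quasi-likelihood fit after Benjamini-Hochberg correction. Without deleted library 1 the values were -0.65 and -0.79, and without deleted library 2 they were -0.20 and -0.41. Rpl8, which lies at the peptidyl transferase center, had 1224 and 998 CPM in the controls and 1056 and 906 CPM in the deleted libraries, so that deleted library 1 lay between the controls. Rpl3, another protein near that center, had 146 and 128 CPM in the controls and 83.7 and 122 CPM after deletion. Rpl32 had 239 CPM in both controls and in deleted library 1 and 153 CPM in deleted library 2, so that 1 library sets its log2 fold change of -0.24, which was 0.14 without that library and -0.73 without deleted library 1.

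The stalk recruits translation factors to the large subunit and is built of Rplp0, Rplp1 and Rplp2. Rplp1 had the highest control level per length of the family, 1454 CPM per kb of exon, ahead of Rpl4 with 1358 and Rpl8 with 1289. This order depends on the annotated exon length, 495 bases for Rplp1 and 4483 for Rps3. Rps3, with a control mean of 1016 CPM against 720 CPM for Rplp1, was at 227 CPM per kb. Rplp1 had 741 and 699 CPM in the controls and 629 and 541 CPM in the deleted libraries, without overlap. Rplp0 had 682 and 606 CPM in the controls and 733 and 533 CPM in the deleted libraries, which lay on either side of them. Rplp2 likewise had 113 and 123 CPM in the controls and 131 and 95.1 CPM in the deleted libraries. The log2 fold change was -0.26 ± 0.25 for Rplp1, 0.02 ± 0.29 for Rplp0 and -0.01 ± 0.26 (SE) for Rplp2, and that of Rplp0 was -0.02 with library size as the only scaling. Without deleted library 1 the values were -0.49, -0.35 and -0.39, and without deleted library 2 they were -0.05, 0.33 and 0.30.

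Rpl5 and Rpl11 bind 5S ribosomal RNA and, when not in ribosomes, the p53 ubiquitin ligase Mdm2. Rpl5 (ENSMUSG00000058558) had 27.0 and 26.6 CPM in the controls, 8.28 CPM in deleted library 1 and 22.4 CPM in deleted library 2. Rpl11 had 17.6 CPM in both controls, 14.0 CPM in deleted library 1 and 17.7 CPM in deleted library 2. Both genes had all their coding stretches elsewhere, and both were lowest in deleted library 1. The log2 fold change of Rpl5 was -0.83 ± 0.39 (SE), adjusted p of 0.457 by the edgeR quasi-likelihood fit after Benjamini-Hochberg correction, and that of Rpl11 was -0.14 ± 0.25 (SE). Without deleted library 1 the values were -0.34 and -0.08, and without deleted library 2 they were -1.55 and -0.19. Of 10 genes listed for Mdm2 and p53 targets, 10 had a positive log2 fold change, with a median of 0.81, and 0 passed the test in either direction. Their summed level was 766 and 660 CPM in the controls and 1038 and 1017 CPM in the deleted libraries. Bbc3, a pro-apoptotic p53 target, had 6.64 and 7.01 CPM in the controls and 18.8 and 11.97 CPM after deletion.

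Rpl10a had 44.8 and 36.1 CPM in the controls, 15.9 CPM in deleted library 1 and 31.9 CPM in deleted library 2. Rpl9 had 27.5 and 26.0 CPM in the controls, 11.8 CPM in deleted library 1 and 21.0 CPM in deleted library 2. Deleted library 1 was the lowest of the 4 for both, as for Rpl5.

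Among small-subunit members, Rps26, which lies at the mRNA exit (ENSMUSG00000025362, chr10:128061586-128063562), had 268 and 231 CPM in the controls, 173 CPM in deleted library 1 and 126 CPM in deleted library 2. Rps15, near the decoding center, had 418 and 393 CPM in the controls and 326 and 247 CPM in the deleted libraries. For both, the deleted libraries were below the controls and deleted library 2 was the lowest. The log2 fold changes were -0.69 ± 0.27 for Rps26 and -0.46 ± 0.26 (SE) for Rps15, with adjusted p of 0.344 and 0.542 by the edgeR quasi-likelihood fit after Benjamini-Hochberg correction. Without deleted library 1 they were -1.07 and -0.80, and without deleted library 2 they were -0.38 and -0.17. Rps3, at the mRNA entry, had 1068 and 964 CPM in the controls and 985 and 795 CPM after deletion. Deleted library 1 lay between the controls. The log2 fold change of Rps3 was -0.15 ± 0.28 (SE), with 0.10 without deleted library 2 and -0.44 without deleted library 1.

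The small-subunit members Rps27a, Rps29, Rps6 and Rpsa, with no coding stretch of their own, were likewise lowest in deleted library 1. Rps27a, made as a fusion with ubiquitin (ENSMUSG00000020460), had 25.2 and 20.5 CPM in the controls, 6.84 CPM in deleted library 1 and 17.4 CPM in deleted library 2. Rps29 had 3.03 and 2.44 CPM in the controls, 0.807 CPM in deleted library 1, from 19 counts, and 1.95 CPM in deleted library 2. The log2 fold changes were -0.93 ± 0.39 and -1.01 ± 0.53 (SE), with adjusted p of 0.384 and 0.510 by the edgeR quasi-likelihood fit after Benjamini-Hochberg correction. Without deleted library 2 they were -1.60 and -1.61, and without deleted library 1 they were -0.48 and -0.57. Rps6, the substrate of S6 kinase, had 7.61 and 8.26 CPM in the controls and 4.80 and 9.69 CPM after deletion, from counts between 113 and 210. Rpsa, also known as the laminin receptor, had 31.5 and 28.7 CPM in the controls and 22.7 and 27.3 CPM after deletion. Rps19, of whose coding stretches 48.2% occur elsewhere and which is the gene most often mutated in Diamond-Blackfan anemia, had 337 and 291 CPM in the controls and 271 and 282 CPM after deletion. Its log2 fold change was -0.16 ± 0.22 (SE), and ran from -0.27 without control library 2 to -0.04 without control library 1.

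The members above both controls in both deleted libraries include Rpl27, Rpl22l1, Rps10 and Rpl3l. Rpl27 had 17.7 and 14.1 CPM in the controls and 23.4 and 20.0 CPM after deletion. Rps10 had 46.4 and 40.9 CPM in the controls and 61.6 and 49.2 CPM after deletion. Log2 fold changes were 0.48 ± 0.27 for Rpl27 and 0.38 ± 0.24 (SE) for Rps10, and the lowest adjusted p of these 4 genes was 0.542 by the edgeR quasi-likelihood fit after Benjamini-Hochberg correction. With libraries scaled by TMM, Rps10 overlapped between groups. Without deleted library 2 the values of Rpl27 and Rps10 were 0.70 and 0.64, and without deleted library 1 they were 0.25 and 0.09.

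Paralogues were unequal in level. Rpl22l1, the paralogue of Rpl22, had 29.996 and 21.05 CPM in the controls and 31.99 and 35.0 CPM after deletion. Rpl22 had 201 and 183 CPM in the controls and 172 and 148 CPM after deletion. In CPM the pair stood on opposite sides of the controls, while with TMM scaling the groups overlapped for Rpl22. The pair was fitted with log2 fold changes of 0.41 ± 0.25 and -0.23 ± 0.22 (SE), and the difference between them was not tested. That of Rpl22l1 was 0.70 without control library 1 and 0.17 without control library 2, and that of Rpl22 was -0.45 without deleted library 1 and -0.02 without deleted library 2. Rpl3l, the muscle paralogue of Rpl3, was at 1.24 CPM per kb in the controls against 100.8 CPM per kb for Rpl3, from 40 to 64 counts in a library. Its log2 fold change of 0.35 ± 0.46 (SE) was 0.05 without deleted library 1 and 0.60 without deleted library 2. Rpl7l1 had 47.2 and Rpl7 139 CPM per kb in the controls, with log2 fold changes of -0.03 ± 0.26 and -0.16 ± 0.25 (SE), which were -0.33 and -0.43 without deleted library 1 and 0.23 and 0.08 without deleted library 2. Rps27l, a p53-responsive paralogue, had 82.0 CPM per kb and Rps27, with all coding stretches elsewhere, 6.20 CPM per kb, an order that the copies of Rps27 also bear on. Rps27l had 76.4 and 57.5 CPM in the controls and 81.1 and 58.3 CPM after deletion, so that the groups overlapped. The testis paralogues Rpl39l and Rpl10l failed the filter, with 1 to 7 counts of Rpl39l in a library, and with 2 and 1 counts of Rpl10l in the controls and 0 in both deleted libraries, where 3 counts would be 0.127 and 0.162 CPM.

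The 4 X-linked members did not move as a group. Rpl36a had 11.2 and 8.03 CPM in the controls, 3.23 CPM in deleted library 1 and 6.39 CPM in deleted library 2. Rpl10, which completes the large subunit in the cytoplasm, had 45.3 and 41.8 CPM in the controls, 23.2 CPM in deleted library 1 and 46.3 CPM in deleted library 2. Rps4x, a small-subunit protein with a Y-linked copy in humans, had 113 and 102 CPM in the controls and 116 and 87.0 CPM after deletion. Rpl39 had 159 and 132 CPM in the controls and 184 and 153 CPM after deletion. In the library with Xist, Rpl36a and Rpl10 were thus at their lowest, and Rps4x and Rpl39 at their highest. Log2 fold changes ran from -1.01 ± 0.40 (SE) for Rpl36a to 0.25 ± 0.24 (SE) for Rpl39, with adjusted p of 0.364 and 0.744 by the edgeR quasi-likelihood fit after Benjamini-Hochberg correction. Without deleted library 1 these values were -0.67 and -0.00760, and without deleted library 2 they were -1.43 and 0.48.

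Which deleted library was lower differed between members. In 33 of the 80 members both lay below both controls in CPM, against 22.9% of all tested genes. The log2 ratios of the 2 libraries to the control mean had a Spearman rho of 0.21 over the 80 members. It was 0.26 over the 68 with at least 100 counts in every library, a description in which both ratios share the controls. Over all tested genes, 41.8% were lowest in deleted library 1 and 16.8% in deleted library 2. Of the 26 tested members with all coding stretches elsewhere, 23 were lowest in deleted library 1 and 0 in deleted library 2. Of the 30 tested members with under 90% elsewhere, 5 were lowest in deleted library 1 and 23 in deleted library 2. On the log2(CPM + 0.5) scale against the control mean, the first set had a median of -0.64 in deleted library 1 and -0.14 in deleted library 2, and the second -0.09 and -0.32. Members in between had medians of 0.03 and -0.23. The 74 other tested protein-coding genes with all coding stretches elsewhere had medians of -0.06 and -0.11, and the 13153 with under 90% had -0.10 and 0.03. Over all annotated exons, other genes with all coding stretches elsewhere (291, tested or not) had a median share elsewhere of 99.8%. For the 26 members it was 38.8%, so these genes are not alike in how much sequence can be counted. The 75 tested mitochondrial ribosomal protein genes, whose median coding share elsewhere is 0%, had medians of -0.11 and -0.36, with 5 lowest in deleted library 1 and 52 in deleted library 2. The coding share elsewhere had a rho of -0.43 with the ratio in deleted library 1 and 0.32 with that in deleted library 2, and -0.27 and 0.34 over the 68 members. The classes were set after the values were seen and no test was made between them. The share of reads matched to no exon, lowest in deleted library 1 and highest in deleted library 2, moves with this split. So do the interferon and sex transcripts of deleted library 1. The part of any of these in the split was not tested.

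**Figure D4:**
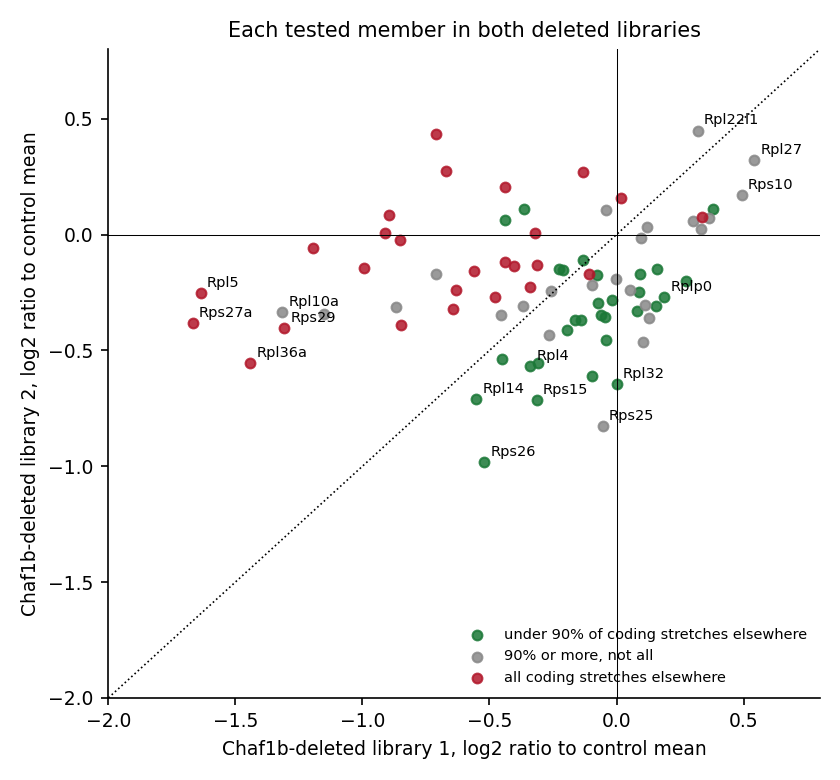
Log2 ratio to the control mean, on the log2(CPM + 0.5) scale, of each tested member in deleted library 1 (x axis) and deleted library 2 (y axis), with colors as in the plot of copies and counts and a dotted line of equal values. Red members spread to the left, with a median of -0.64 on the x axis, and green members lie lower, with a median of -0.32 on the y axis.

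Members that overlap other genes can share or lose reads, and the strand setting of the counting is not given in the sources used here. In the annotation, 18 members overlap another gene, 3 of them on the same strand. The median log2 fold change was -0.29 for the 18 and -0.16 for tested members that overlap no other gene. Small nucleolar RNA genes, 56 in all, lie inside 30 members, and the median was -0.23 for hosts and -0.16 for tested members that host none.

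Promoters from RefSeq (GRCm38.p6) were matched for 61 of the 82 members. CTTTC, a pyrimidine run, was searched on the gene's strand from 20 bases before to 30 bases after the transcription start, and occurred in 22 of the 61 members (36.1%) and in 7.66% of the 27025 genes of the table. CGGAAG, the core bound by ETS factors, was searched on both strands from 250 bases before to 50 after the start, and occurred in 40 of the 61 (65.6%), in 56.5% of 69 mitochondrial ribosomal protein genes and in 18.8% of all genes. The longer CTCTTTC occurred in 13.1% of the members and 0.796% of all genes in the shorter window, and TATAAA in 11.5% and 15.7% in the longer one on both strands. A match is no proof of a site. The median log2 fold change was -0.25 for the 21 tested members with CTTTC and -0.14 for the 38 without it, and -0.15 with CGGAAG and -0.13 without it. The stretches from 100 bases before to 15 after the start are shown for Rpl4 (chr9:64173287-64173401, plus strand), Rps26 (chr10:128626492-128626606, minus strand), Rpl5 (chr5:107900428-107900542, plus strand), Rps10 (chr17:27635230-27635344, minus strand), Rpl14 (chr9:120571417-120571531, plus strand) and Rpl27 (chr11:101442145-101442259, plus strand), which differ in direction and in how well they can be counted, with CTTTC and CGGAAG matches in capitals.
Rpl4: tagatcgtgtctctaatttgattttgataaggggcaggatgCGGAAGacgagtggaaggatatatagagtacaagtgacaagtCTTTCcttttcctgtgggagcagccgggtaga
Rps26: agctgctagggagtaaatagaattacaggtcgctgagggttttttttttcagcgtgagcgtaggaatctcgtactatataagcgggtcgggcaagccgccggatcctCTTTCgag
Rpl5: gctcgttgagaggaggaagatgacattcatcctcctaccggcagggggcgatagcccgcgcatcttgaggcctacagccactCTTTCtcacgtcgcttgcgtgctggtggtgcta
Rps10: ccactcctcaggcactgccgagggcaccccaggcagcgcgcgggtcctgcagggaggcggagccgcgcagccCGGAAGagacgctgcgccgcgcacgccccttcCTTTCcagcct
Rpl14: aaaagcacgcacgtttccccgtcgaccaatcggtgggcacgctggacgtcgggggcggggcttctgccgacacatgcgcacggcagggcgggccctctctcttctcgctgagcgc
Rpl27: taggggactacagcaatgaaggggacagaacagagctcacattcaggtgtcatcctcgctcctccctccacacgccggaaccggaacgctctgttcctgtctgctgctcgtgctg
The first 4 stretches hold a CTTTC match and the last 2 hold none, and each set has genes below and above the controls.

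Mitochondrial ribosomal protein genes and ribosome assembly genes had negative medians, of differing size, and no calls. Of 75 tested mitochondrial ribosomal protein genes, which have a median of 0% of coding stretches elsewhere, 62 had a negative log2 fold change, with a median of -0.19. Their summed level was 3060 and 2398 CPM in the controls and 2489 and 2140 CPM after deletion, and overlapped between groups. Mrps25 had 50.8 and 45.7 CPM in the controls and 29.9 and 28.9 CPM after deletion. Of 23 genes of ribosome assembly and RNA polymerase I, 22 had a negative log2 fold change, with a median of -0.37. Their summed level was 3842 and 2584 CPM in the controls and 2421 and 2308 CPM after deletion, so that the controls differed from each other by more than control library 2 differed from either deleted library. Among these, Polr1a, the largest subunit of RNA polymerase I, had 142 and 119 CPM in the controls and 80.0 and 87.2 CPM after deletion, a log2 fold change of -0.62 ± 0.21 (SE) with an adjusted p of 0.279 by the edgeR quasi-likelihood fit after Benjamini-Hochberg correction. Without single libraries it ran from -0.75 to -0.48. The nucleolar protein gene Ncl had 1434 CPM in control library 1 and 863, 833 and 837 CPM in the other libraries. In these 2 lists, as in those of the next paragraph, 0 genes passed the test in either direction.

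**Figure D5:**
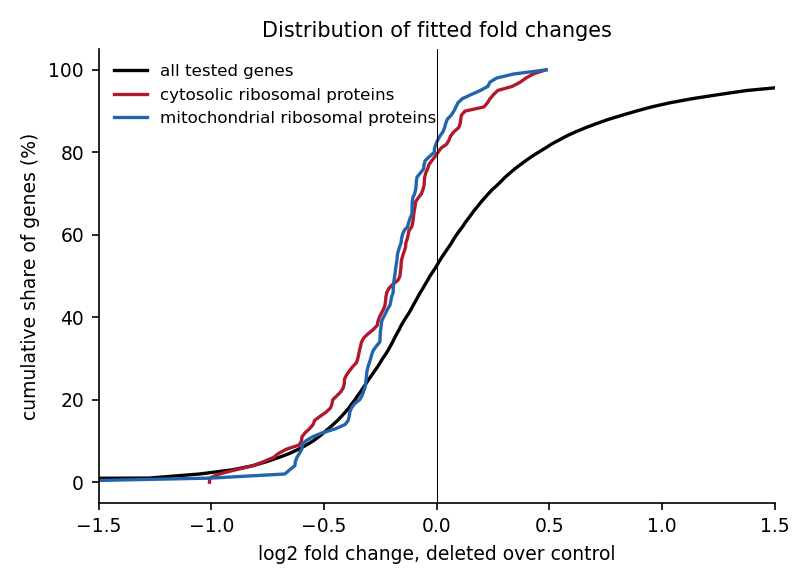
Cumulative share of genes (%) against the fitted log2 fold change (deleted over control) for all 16500 tested genes (black), the 80 tested cytosolic (red) and the 75 tested mitochondrial (blue) ribosomal protein genes. The medians are -0.03, -0.16 and -0.19, and the axis leaves out the tails.

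Of 21 other mRNAs with a terminal oligopyrimidine tract, 18 had a negative log2 fold change, with a median of -0.25. A median of 45.5% of their coding stretches occurred elsewhere, so copies limit the counts in this list too. Eef2, a translation elongation factor, had 3122 and 3104 CPM in the controls and 2541 and 2632 CPM after deletion, whereas Tpt1 had 23.5 and 22.5 CPM in the controls and 31.4 and 41.1 CPM after deletion. Of 17 genes of mTORC1 and S6 kinase signalling, 11 were negative, with a median of -0.11. Larp1, which binds the pyrimidine tract, had 363 and 292 CPM in the controls and 214 and 268 CPM after deletion. The 5 genes of ribosomal proteins or ribosome partners outside the naming rule had a median of -0.03, and Gnb2l1, a scaffold protein of the small subunit, had 1341 and 1173 CPM in the controls and 1225 and 1020 CPM after deletion. Of 134 ribosomal protein pseudogenes named in the annotation, 23 passed the filter, with a median of -0.16, and their sum of 217 and 168 CPM in the controls and 133 and 137 CPM after deletion was mostly Rpl14-ps1. Rpl14-ps1 alone had 163 and 123 CPM in the controls and 85.7 and 84.9 CPM after deletion, and reads of it and of Rpl14 may be split between the copies.

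Markers of 8 cell types were read as lists. Among the 8 lists 0 genes were called lower, against 0.00606% of all tested genes, and 1, Flt3, was called higher, against 0.37%. That call was lost in 4 of the alternatives besides the count filter. Its adjusted p from edgeR after Benjamini-Hochberg correction was 0.0503 with DESeq2's size factors, 0.0581 with library size only and 0.0596 with protein-coding scaling, and 0.0960 with a replicate block. The call was kept with upper-quartile scaling, with the other 3 tests and without any single library. Flt3, a receptor of early progenitors and dendritic cells and so in both lists, had 4.66 and 5.31 CPM in the controls and 19.3 and 22.7 CPM after deletion. The 10 stem and progenitor markers summed to 1064 and 1045 CPM in the controls and 869.7 and 990 CPM after deletion, with Myb the most abundant, and the 9 dendritic markers to 124 and 676 CPM in the controls and 876 and 367 CPM after deletion, with Cd74. The 11 neutrophil markers, led by S100a9, summed to 54467 and 62139 CPM in the controls and 75375 and 56054 CPM after deletion, and the 9 of 10 monocyte and macrophage markers in the tables, led by Lyz2, to 2731 and 4372 against 5431 and 3641 CPM. The 9 mast cell and basophil markers, led by Mcpt8, summed to 1269 and 817 CPM in the controls and 1132 and 1127 CPM after deletion, and the 10 erythroid markers, led by Gata1, to 99.9 and 64.1 against 56.4 and 79.4 CPM. The 7 megakaryocyte markers, led by Itga2b, summed to 102 and 101.1 CPM in the controls and 155 and 270.4 CPM after deletion, and the 10 lymphoid markers, led by Nkg7, to 90.4 and 114 against 113 and 93.4 CPM. A sum gives most weight to its most abundant gene but need not follow it. Mcpt8 had 267 and 224 CPM in the controls and 296 and 211 CPM after deletion, unlike its sum. Nkg7 was lowest in deleted library 2, with 63.7 CPM, whereas the lymphoid sum was lowest in control library 1. Both deleted libraries lay above both controls for 6 of 7 tested megakaryocyte, 7 of 8 lymphoid and 5 of 8 dendritic markers, with median log2 fold changes of 1.26, 0.92 and 1.23, against 21.4% of all tested genes. In the other lists this held for 3 of 10 stem and progenitor, 3 of 11 neutrophil, 2 of 9 monocyte and macrophage, 2 of 9 mast cell and basophil and 2 of 9 erythroid markers, and 2, 1, 0, 1 and 0 of them lay below both controls, against 22.9% of all tested genes. In none of the 8 lists was a marker at 0 in all 4 libraries. The part of these differences in the family's lower share was not tested.

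Stress transcripts also differed between the groups. The 11 immediate early and heat shock genes summed to 494 and 541 CPM in the controls and 1333 and 1002 CPM after deletion, led by Junb. Of the 11 genes 4 were called higher, Hspa1a, Hspa1b, Jun and Fosb, against 0.37% of all tested genes. With at least 10 counts required in every library, Hspa1b alone of these was called and Hspa1a was not tested. Jun and Fosb, like Flt3 above, then had an adjusted p of 0.0651 by the same edgeR test and Benjamini-Hochberg adjustment. By that test and adjustment, a replicate block gave Hspa1a 0.0560, Jun 0.0723 and Fosb 0.0631, so that these calls were lost. Hspa1b kept its call there, at 0.0489. With DESeq2's size factors the calls of Jun and Fosb were lost, each at 0.0503 by the same edgeR test and adjustment. Hspa1b had 0.484 and 0.590 CPM in the controls and 19.2 and 17.7 CPM after deletion, with an adjusted p of 0.0120 by the edgeR quasi-likelihood fit after Benjamini-Hochberg correction. Of the 25 interferon-stimulated genes 0 were called, with Ddx58 the most abundant, and of the 5 sex-linked transcripts 0 were called. All 25 interferon-stimulated genes had a positive log2 fold change, with a median of 2.68. Both deleted libraries lay above both controls for 16 of them (21.4% of all tested genes), and 9 overlapped. On the log2(CPM + 0.5) scale, their median ratio to the control mean was 3.28 in deleted library 1 and 0.26 in deleted library 2. The part of these transcripts in the family's values was not tested.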

How the data were processed

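The deposited raw gene counts, made by the authors with STAR and HTSeq on mm9, were used as they are, with CPM taken over the total on genes. The fit used edgeR 4.0.16 in R 4.3.3 (TMM, filterByExpr with a minimum count of 10, quasi-likelihood test, Benjamini-Hochberg adjustment over all 16500 tested genes), with a gene called at 1.5-fold and an adjusted p under 0.05. DESeq2 1.42.0 and edgeR's exact and likelihood ratio tests were alternatives. Shares were compared by the exact permutation test. Copies were counted as exact 31-base stretches in the NCBIM37 genome. RefSeq promoters matched 61 of 82 members.

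The members and lists were chosen with earlier results of these data known. Genes were named by call, by the 5 largest changes without overlap in each direction, by the 8 highest control levels per kb, by set roles, as paralogues or as X-linked, and some of these are not reported here by name. Rpl9 and Rpl14 were named after the data were seen, for their unadjusted p. The split by coding stretches, the sum without the most counted member and the overlap under TMM scaling were also added after the data were seen. The labels number the replicates but do not say whether equal numbers pair the libraries. The correlation of their differences was 0.013 over all tested genes, which cannot settle this with 2 libraries a group. A replicate block served only as an alternative.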

Additional observations from a re-analysis of the deposited data

How the results depend on the processing

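With 2 libraries a group, the number of calls depends on the processing. Genes called higher numbered 61, and 27 with DESeq2's size factors, 30 with library size only, 32 with protein-coding scaling, 808 without a low-count filter, 3 with at least 10 counts in every library, 537 with the exact test, 583 with the likelihood ratio test, 471 with DESeq2, 0 at 2-fold and an adjusted p under 0.01, and 125 to 331 without single libraries. Genes called lower numbered 1, and 79 without a filter, 0 with at least 10 counts in every library, 37, 40 and 32 with the exact, likelihood ratio and DESeq2 tests, 0 at the stricter threshold and 6 to 42 without single libraries. The replicate block, which treats equal numbers as a pairing, called 14 higher and 0 lower, and gave Chaf1b -1.98 with an adjusted p of 0.0592 (edgeR quasi-likelihood, Benjamini-Hochberg) and Rplp0 -0.0151. Chaf1b was -2.001 with at least 10 counts in every library, with an adjusted p of 0.0651 (edgeR quasi-likelihood, Benjamini-Hochberg), and -2.24 to -1.74 without single libraries.

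Members called lower numbered 0 to 1 without single libraries, and those with an unadjusted p under 0.05 numbered 0 to 2 higher (2 against 10.7% of all genes) and 1 to 13 lower, with 3 lower under library-size, upper-quartile and protein-coding scaling, against 3.70%, 2.99% and 3.18% of all genes. The median of the members was -0.32 to -0.0616 and the log2 ratio of their share -0.37 to -0.15. Without the most counted member the ratio was -0.23. Rplp0 was -0.0237 with library size only and -0.00725 with protein-coding scaling, and without a filter Rpl7l1 was 0.00748 and Rplp2 0.0230.

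Among the 31 named members fitted without single libraries, the sign changed for Rplp0 (-0.35 to 0.33), Rplp2 (-0.39 to 0.30), Rpl7 (-0.43 to 0.0790), Rpl7l1 (-0.33 to 0.23), Rpl8 (-0.38 to 0.0686), Rpl10 (-0.77 to 0.00586), Rpl32 (-0.73 to 0.14), Rpl39 (-0.00760 to 0.48), Rps3 (-0.44 to 0.10), Rps4x (-0.39 to 0.25), Rps6 (-0.58 to 0.21), Rps27 (-0.42 to 0.17) and Rps27l (-0.28 to 0.42). Rpl5 ran from -1.55 to -0.34. The cause was not tested. A lone library is taken to vary like the other group, and counts of members with all coding stretches elsewhere are limited by the reads that can be placed.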
